A study of Mus musculus with 8 samples.

Results

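The sites described here are PPARb peaks of differentiated mouse oligodendrocytes that had an HA peak at the same place but no Qki-5 peak. They were selected on measured peaks. A PPARb peak on chromosomes 1 to 19, X or Y was a member when an HA peak centre lay under 200 bp from its centre and no Qki-5 peak centre lay that close. All peaks were 200 bp wide, so a centre under 200 bp away means that the peaks share at least 1 base. The rule took 3199 of 26404 PPARb peaks, or 12.1%. Of the remaining PPARb peaks, 16208 had both HA and Qki-5 that close and are called three-protein sites, 3445 had Qki-5 without HA, and 3552 had neither.

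Chromatin immunoprecipitation with sequencing was done on 2 kinds of oligodendrocyte, the cell that wraps axons in myelin. The differentiated cells came from neural stem cells of an FvB/C57BL6 hybrid with ectopic PPARb carrying an HA tag, at passage 7, and were matured in Neurobasal medium with B-27, IGF-1 at 100 ng/mL, T3 at 50 ng/mL and GlutaMAX-I at 2 mM. All of the differentiated-cell libraries (PPARb, HA, Qki-5, Pol II and input) carried the introduced PPARb, so there is no library without it. The isolated cells came straight from C57BL6 mouse brain, at passage 0, with libraries of Qki-5, PPARb and input. Each of the 8 groups had 1 library, so no value has a replicate error. Intervals are 95% intervals of counting error only, exact (Clopper-Pearson) for a share, Newcombe's for a difference of shares and exact Poisson for a height.

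PPARb, encoded by Ppard, is a nuclear receptor for fatty acids and their derivatives. It binds DNA with the retinoid X receptor at a direct repeat of the half-site AGGTCA spaced by 1 base, and is known for raising genes of fatty acid use. Qki-5 is the nuclear isoform of Quaking, an RNA-binding protein needed for myelination, whose RNA target holds ACUAAY. The HA antibody reads only the introduced receptor, whereas the PPARb antibody can read tagged and untagged receptor.

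The sequences below show the parts of member peaks that lie upstream of an annotated transcription start, from RefSeq on the build GRCm38.p6, 5′ to 3′ along the gene's strand. The first 4 are from sites with no Qki-5 peak within 1000 bp, at genes whose values are given further on: Arl6ip1 (a membrane-shaping protein of the endoplasmic reticulum), Mt1 (a metallothionein), Fth1 (the ferritin heavy chain) and Nes (nestin, a neural stem cell filament). The last 2, Eif4b (a translation initiation factor) and Tspan4 (a tetraspanin), had a Qki-5 peak 325 and 231 bp away. Capitals mark any match, on either strand, to the half-site AGGTCA, the box CCAAT, the E-box CACGTG, the cAMP element TGACGTCA, the ETS core CCGGAA, the GC box core GGGCGG or the Quaking-type strings ACTAAC and ACTAAT, and any 13-base stretch with at most 2 mismatches to the 12 fixed bases of AGGTCANAGGTCA.
Arl6ip1 (chr7:118129626-118129810, minus strand): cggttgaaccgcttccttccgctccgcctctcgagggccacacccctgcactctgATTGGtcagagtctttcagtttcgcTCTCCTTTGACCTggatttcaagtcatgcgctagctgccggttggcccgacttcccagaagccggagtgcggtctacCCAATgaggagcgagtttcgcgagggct
Mt1 (chr8:94178988-94179088, plus strand): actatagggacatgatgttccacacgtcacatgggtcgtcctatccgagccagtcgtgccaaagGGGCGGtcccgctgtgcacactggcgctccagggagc
Fth1 (chr19:9982449-9982645, plus strand): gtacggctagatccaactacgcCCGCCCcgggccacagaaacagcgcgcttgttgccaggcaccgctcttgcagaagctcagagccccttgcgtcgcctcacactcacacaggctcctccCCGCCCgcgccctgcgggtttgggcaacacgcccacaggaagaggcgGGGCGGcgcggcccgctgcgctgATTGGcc
Nes (chr3:87970955-87971092, plus strand): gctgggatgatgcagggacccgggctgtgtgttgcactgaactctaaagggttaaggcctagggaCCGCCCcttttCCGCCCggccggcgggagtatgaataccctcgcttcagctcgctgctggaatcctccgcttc
Eif4b (chr15:102073585-102073772, plus strand): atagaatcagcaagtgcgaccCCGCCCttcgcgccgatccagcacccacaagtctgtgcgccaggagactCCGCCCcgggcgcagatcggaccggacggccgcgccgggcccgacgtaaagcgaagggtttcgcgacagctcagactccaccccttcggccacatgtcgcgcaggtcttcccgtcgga
Tspan4 (chr7:141475095-141475235, plus strand): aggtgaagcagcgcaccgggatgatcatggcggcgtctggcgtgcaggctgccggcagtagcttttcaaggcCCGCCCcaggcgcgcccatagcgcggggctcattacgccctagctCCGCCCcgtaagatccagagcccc

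Of these 6, the Arl6ip1 stretch held the closest match to the receptor's direct repeat, AGGTCAAAGGAGA on the opposite strand with 2 mismatches, together with 2 CCAAT boxes. The Mt1, Fth1, Nes, Eif4b and Tspan4 stretches held GGGCGG, the core of the GC box, between 1 and 3 times. The stretches of Fth1 and Arl6ip1 also held CCAAT. A match is a string of letters in this window and says nothing of binding.

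The same motifs were counted in all 21237 RefSeq promoter windows of protein-coding genes, each running from 250 bases before to 50 after the start. Of these windows 384 held a member centre and 4479 held a three-protein centre and no member centre. The direct repeat with at most 2 mismatches was in 13 of the 384 member windows, or 3.39% (1.81 to 5.72), in 3.31% of all windows and in 2.34% of three-protein windows. No member window held it without mismatch. The half-site AGGTCA alone was in 10.4% of member windows (7.55 to 13.9), against 14.7% of all windows and 10.1% of three-protein windows. Of windows with a member that had a Qki-5 centre under 1000 bp away 7.11% (4.27 to 11) held it, and of those with a member that had none 16.8% (10.8 to 24.3). The latter interval covers the 14.7% of all windows. The median GC content of these 2 sets was 67.0% and 62.3%, and what part this has in the contrast was not tested. CCGGAA, the core that ETS factors read, was in 24.5% of member windows (20.3 to 29.1) and in 39.0% of three-protein windows (37.6 to 40.5), with 18.7% in all windows. GGGCGG was in 73.4% of member, 74.0% of three-protein and 46.2% of all windows, and the median GC content was 65.0%, 64.0% and 56.3%. CCAAT was in 37.2% of member, 37.3% of three-protein and 38.2% of all windows. CACGTG was in 8.07%, 12.2% and 7.84% in the same order, and TGACGTCA in 2.60%, 4.20% and 2.24%. The Quaking-type strings were no more frequent than in all windows, with ACTAAC in 4.43%, 4.20% and 5.47%, and ACTAAT in 2.86%, 2.81% and 5.23%. The direct repeat contains the half-site, so those 2 counts overlap.

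The members were divided into 2 kinds by how far the nearest Qki-5 peak lay, with a limit of 1000 bp set for the description. A Qki-5 centre stood from 200 to under 1000 bp away at 1372 members, 42.9% of all, and these are called flanked sites. At 965 members, 30.2%, it stood under 400 bp away. The other 1827 had no Qki-5 centre under 1000 bp away and are called remote sites, and 1046 members, 32.7%, had none within 10000 bp. The name "without Qki-5" thus holds for the 200 bp of the peak and, for the flanked sites, not for its surroundings. The reverse case was as common: of the PPARb and Qki-5 sites without HA, 30.7% had an HA centre under 400 bp away. At the limit of the rule, 128 sites with Qki-5 from 190 to under 200 bp away had a median PPARb height of 10.7, as had the 106 members with Qki-5 from 200 to under 210 bp away. On the HA side, the 61 members with HA from 190 to under 200 bp away had a median of 9.35, and the 62 peaks with HA from 200 to under 210 bp away one of 8.68. The caller's minimum distance between peaks of 1 list was 400 bp, so a Qki-5 peak close by also limits where a second one could be called.

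A missing Qki-5 peak is not a measured absence. The caller's threshold for Qki-5 was 12 tags in 18078176, or 6.64 per 10000000, though deposited Qki-5 heights went down to 4.98. The caller removed 4613 putative peaks by the input filter and 3520 by the local filter. Library depth ran from 12624236 tags (HA) to 24880851 (Pol II) and tags in peaks from 0.116% (isolated-cell PPARb) to 4.62% (HA). As a check of the cell type, a Pol II peak stood within 1000 bp of a boundary at 2 of 10 oligodendrocyte markers (Cnp and Olig1), and at none of Mbp, Mog, Mag, Mobp, Sox10, Olig2 and Myrf. It stood at 4 of 6 precursor or stem cell markers (Nes, Sox2 and Vim among them), 1 of 5 astrocyte, 2 of 5 neuron, 0 of 4 microglia and 0 of 4 endothelial markers. Over all protein-coding genes the share with such a peak was 36.3%. The differentiated cells' Pol II peaks thus did not mark most of these oligodendrocyte markers, and they did not mark most genes either. With so few markers per cell type the counts do not settle the cell type. What part this has in the results was not tested.

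Member peaks were lower in PPARb than three-protein sites. Peak height is the authors' normalized tag count, in tags per 10000000. The median PPARb height of the members was 8.46 (quartiles 6.68 and 10.7, range 4.90 to 36.5) and the median HA height 12.7 (quartiles 9.51 and 17.4, range 6.34 to 121.2). Flanked sites had medians of 9.79 for PPARb and 15.8 for HA, remote sites 7.57 and 11.1, and three-protein sites 11.1 and 16.6. The flanked sites as a set thus stood nearer to the three-protein sites than to the remote ones in both libraries. This did not hold for the 266 flanked sites with Qki-5 from 500 to under 1000 bp away. Their medians were 8.46 for PPARb and 13.5 for HA, against 8.46 and 12.7 for remote sites with Qki-5 under 5000 bp away. Members made up 16.1% of the lowest of 10 equal height classes of PPARb peaks and 4.66% of the tallest. Of the 1000 tallest PPARb peaks 42 were members, of which 35 were flanked and 7 remote. These heights come from the lists that chose the sites and are given as a description. In bulk cells, a lower peak from fewer cells bound and one from less binding per cell cannot be told apart.

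**Figure D1:**
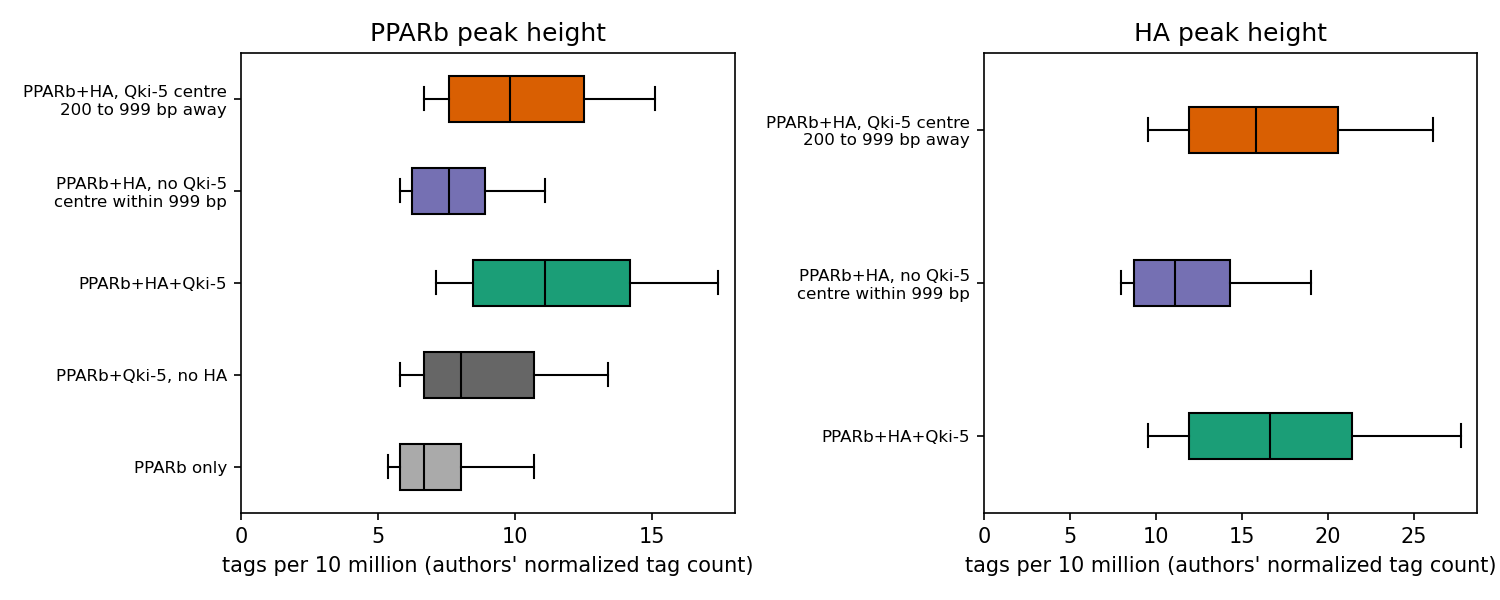
PPARb height (left) and HA height (right), both in tags per 10000000, of the classes of PPARb peak; the box spans the quartiles, the line is the median and the whiskers reach the 10th and 90th percentile of sites. Flanked sites (medians 9.79 and 15.8) lie close to three-protein sites (11.1 and 16.6) and remote sites (7.57 and 11.1) lie lower.

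HA and PPARb heights went together across the members, with a Spearman correlation of 0.66 over 3199 sites (0.67 over flanked, 0.52 over remote, 0.66 over three-protein sites), a description over peaks that share 2 libraries and 1 input. The HA height was above the PPARb height at 94.8% of members, with a median ratio of 1.53 (quartiles 1.26 and 1.87). The ratio compares 2 antibodies and has no absolute meaning. The members with the highest ratios, named after their values were seen, had a low PPARb and a high HA peak. One 304507 bp from the nearest gene boundary, that of Nr2f2, had a PPARb height of 5.79 and an HA height of 30.9, and one near Fam76b had 6.23 and 30.1.

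The tallest members were flanked sites. The tallest of all lay on chromosome 3, 96555245 to 96555445, 2612 bp upstream of Txnip, which encodes the thioredoxin-interacting protein that restrains glucose uptake. Its PPARb height was 36.5 (29.0 to 45.3), rank 5 of all PPARb peaks, and its HA height 72.9 (58.8 to 89.4). It had no Pol II peak, an isolated-cell PPARb peak of 7.61 (4.16 to 12.8), no isolated-cell Qki-5 peak, and a Qki-5 peak of height 22.1 at 229 bp. A site inside Klf10, the gene of a Krueppel-like transcription factor, on chromosome 15, 38299206 to 38299406, had the highest HA peak among the members at 121.2 (102.8 to 142.0), with a PPARb height of 28.0 (21.5 to 35.9). It too had no Pol II peak, had an isolated-cell PPARb peak of 9.79, and had Qki-5 at 222 bp with a height of 27.7.

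All 12 sites highest in both PPARb and HA rank had a Qki-5 peak between 202 and 378 bp away. Besides Txnip and Klf10 their nearest genes were Hbegf (a growth factor of the epidermal growth factor family), Zfp36l1 (an RNA-decay factor), Kdm6b (a histone H3K27 demethylase), Rfx7, Syt7, Gm12695, Pigv, Cd180, Pitpnm2 and Nat8f2. Their PPARb heights ran from 21.4 to 36.5 and their HA heights from 34.1 to 121.2. None lay within 1000 bp of a gene boundary. Pol II peaks stood at 3 of the 12 (Zfp36l1 12.1, Pigv 12.9 and Pitpnm2 6.43), isolated-cell PPARb peaks at 2 and isolated-cell Qki-5 peaks at 3 (Kdm6b 11.5, Rfx7 11.5 and Cd180 8.70). Among sites over 10000 bp outside any gene, the tallest were those of Zfp36l1 (PPARb 29.8), Hbegf (25.4), Rfx7 (23.6), Pitrm1, Syt7 and Nfkb1 (23.1 each).

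**Figure D2:**
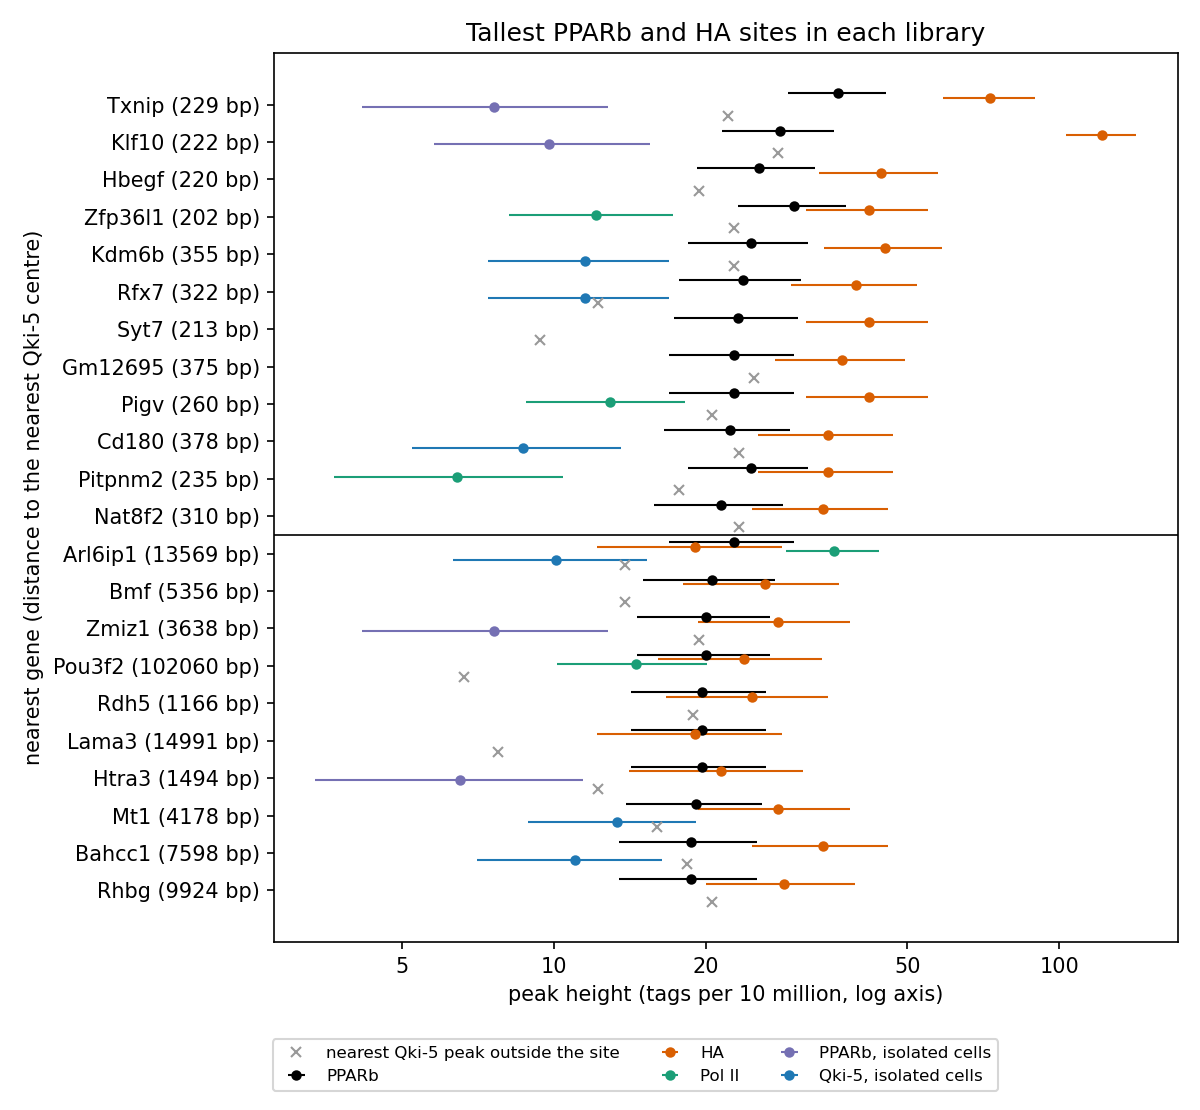
Peak height (tags per 10000000, log axis) in each library at the 12 sites highest in both PPARb and HA (above the line) and at the 10 tallest remote sites (below it); points are heights with their 95% exact Poisson intervals, crosses the nearest Qki-5 peak, and no point means no peak. Above the line HA reaches 121.2 at Klf10 and Qki-5 stands 202 to 378 bp away; below it PPARb runs from 18.7 to 22.7.

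The 10 tallest remote sites had PPARb heights from 18.7 to 22.7, a range that overlaps the 21.4 to 36.5 of the 12 flanked ones, and HA did not stand above PPARb at all of them. They were named after their values were seen. The Arl6ip1 promoter site shown above, 85 bp upstream of the start, had a PPARb height of 22.7 (16.9 to 29.8), HA 19 (12.2 to 28.3), Pol II 35.8 and isolated-cell Qki-5 10.1, with the nearest Qki-5 peak of differentiated cells 13569 bp away. The Mt1 site, centred 1 bp from the start, had PPARb 19.1 (13.9 to 25.8), HA 27.7 (19.3 to 38.6), no Pol II peak and an isolated-cell Qki-5 peak of 13.3. Its nearest Qki-5 peak lay 4178 bp away. A site 6781 bp upstream of Pou3f2, a neural transcription factor, had PPARb 20, HA 23.8 and Pol II 14.5, and its nearest Qki-5 peak was 102060 bp away. Sites inside Bmf, a pro-apoptotic gene (PPARb 20.5, HA 26.1), and Zmiz1, a transcriptional coregulator (20 and 27.7), had no Pol II peak. At Arl6ip1 and Mt1 a Qki-5 peak was therefore called in isolated cells and not in differentiated cells.

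Pol II peaks were fewer at members than at three-protein sites. A Pol II peak centre lay under 200 bp from 696 members, 21.8% (20.3 to 23.2), with 36.5% over all PPARb peaks and 48.4% at three-protein sites. The difference was -26.7 points (-28.3 to -25.0). It was -15.9 points when three-protein sites were weighted to the members' spread over 10 PPARb height classes, and the member share was the lower one in 10 of 10 classes. Against PPARb and Qki-5 sites without HA, at 22.4%, the difference was -0.594 points (-2.59 to 1.40), which covers 0.

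The 2 kinds of member differed from each other. Flanked sites had Pol II at 38.8% (36.2 to 41.4) and remote sites at 8.98% (7.71 to 10.4), 29.8 points apart (26.9 to 32.7). PPARb peaks with neither HA nor Qki-5 had 9.18%, and remote sites differed from them by -0.202 points (-1.78 to 1.46). With those peaks weighted to the remote sites' heights the difference was -2.54 points, with remote sites the lower in 9 of 10 classes. With three-protein sites weighted to the heights of each kind, flanked sites differed from them by -5.16 points and were lower in 9 of 10 classes. Remote sites differed by -24.0 points and were lower in 10 of 10. By distance to the nearest Qki-5 centre, the share was 46.0% from 200 to under 250 bp, 43.5% to under 300 bp, 43.1% to under 400 bp and 38.3% to under 500 bp. It was 18% from there to under 1000 bp, 12% to under 5000 bp and 7.92% beyond. The intervals of the class that ends at 500 bp (30.2 to 46.8) and of the next (13.6 to 23.2) do not overlap. Between the same 2 classes the median PPARb height went from 9.79 to 8.46. The share within 1000 bp of a gene boundary went from 58.2% to 43.6%. What part height and place have in the fall of the Pol II share with distance was not tested.

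**Figure D3:**
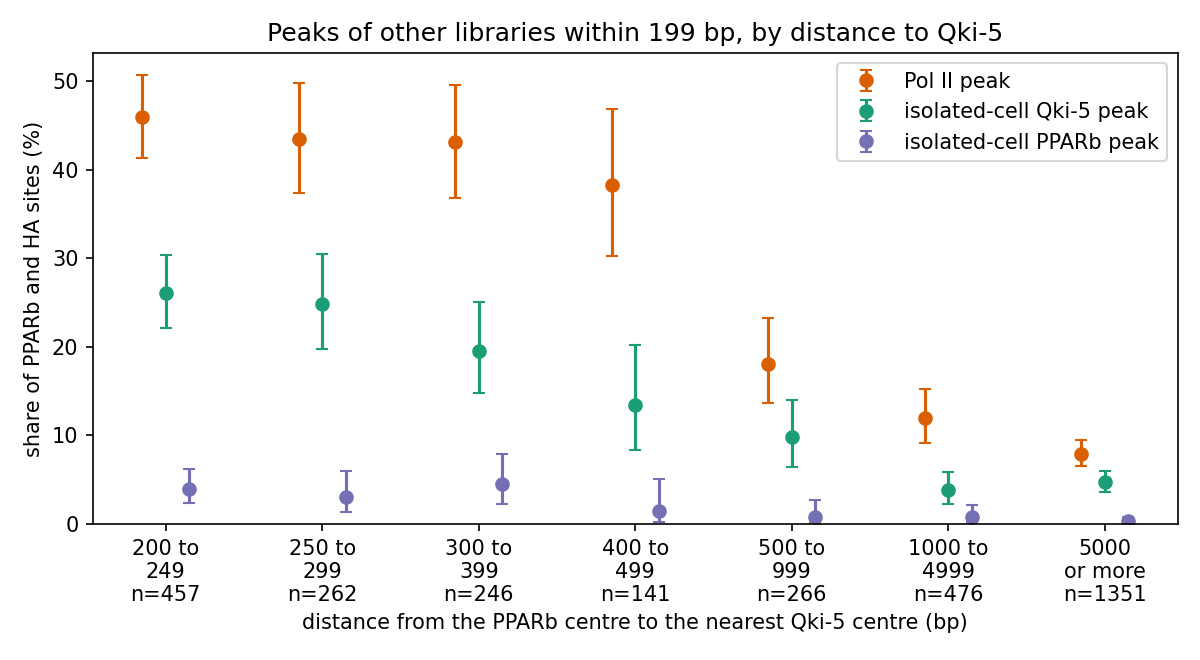
Share of members (%) with a Pol II, isolated-cell Qki-5 or isolated-cell PPARb peak under 200 bp away, by the distance in bp from the PPARb centre to the nearest Qki-5 centre; bars are 95% exact intervals of counting error. The Pol II share is 46.0% in the nearest class, under 250 bp, and 7.92% at 5000 bp or more.

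**Figure D4:**
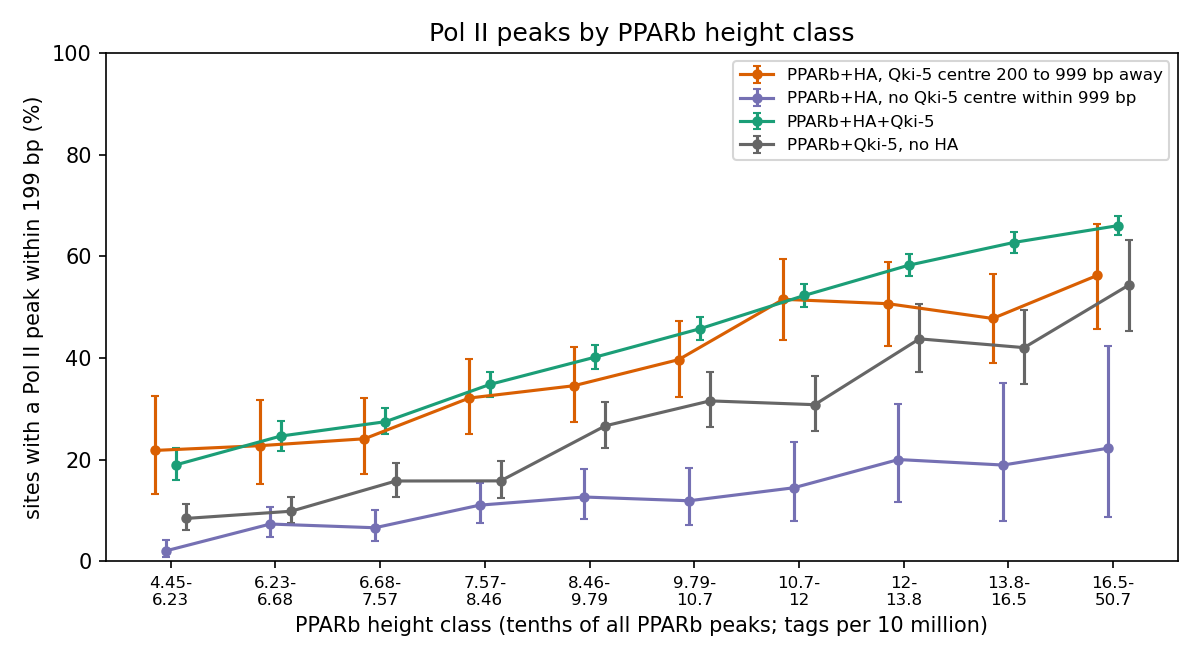
Share of sites (%) with a Pol II peak under 200 bp away, by PPARb height class (10 classes of equal size over all PPARb peaks, in tags per 10000000); bars are 95% exact intervals. Flanked sites run close to three-protein sites, -5.16 points apart after weighting, and remote sites lie below three-protein sites in 10 of 10 classes.

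At flanked sites Pol II lay at either peak. Pol II stood at the member alone in 323 of the 1372 flanked sites, at the Qki-5 neighbour alone in 254, at both in 209 and at neither in 586. A Pol II centre under 200 bp from a peak was counted for it. Where member and neighbour lay under 400 bp apart, the same Pol II peak could therefore count for both. How many of the 209 were such cases was not tested. The Qki-5 neighbours had a median Qki-5 height of 12.7. Of them 50.6% had an HA centre under 200 bp away and 18.9% a PPARb centre. The member's own HA peak could count for the neighbour, whereas the caller kept PPARb peaks 400 bp apart. A PPARb peak other than the member thus had little room near the neighbour. These shares are therefore not like for like. Where a member had a Pol II peak, its median height was 8.84, and 9.24 at flanked and 7.64 at remote sites. The highest Pol II peaks were at Fth1, at the BC005537 gene, at Ulk2 (each 53.9) and at Eif4a2, a translation initiation factor (51.4). Of these only the Fth1 site, shown above, was remote: PPARb 13.8 (9.37 to 19.6), HA 19 (12.2 to 28.3) and Qki-5 3744 bp away.

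Isolated cells had few PPARb peaks at these sites. An isolated-cell PPARb peak lay under 200 bp from 49 members, 1.53% (1.14 to 2.02), with 3.92% over all PPARb peaks and 5.30% at three-protein sites, a difference of -3.77 points (-4.28 to -3.18). With three-protein sites weighted to the members' heights the difference was -1.21 points. PPARb and Qki-5 sites without HA had such a peak at 2.67%, and PPARb peaks with neither at 0.957%. Of the 49 sites 41 were flanked, 2.99% of their kind, and 8 remote, 0.438%. The tallest were at Tarbp2, a partner of Dicer (12.5), at Eif4b (10.9), at Tatdn2 and Bace2 (10.3 each), and at Klf10 and Atg4b, the protease that processes LC3 (9.79 each). The Tarbp2 site, inside that gene, was nearer to a boundary of Map3k12 (1641 bp) than of Tarbp2 (2568 bp). The annotated start nearest to it was nevertheless one of Tarbp2, 453 bp upstream of the site. The Eif4b promoter site shown above had PPARb 19.1, HA 30.1, isolated-cell PPARb 10.9, isolated-cell Qki-5 20.6 and no Pol II peak. None of the 8 remote sites lay at a gene boundary, and 1 of them, inside Btd and named after its value was seen, had a Pol II peak (15.3). Bace2 was the tallest of these 8, 34001 bp outside the gene, with PPARb 9.35, HA 23.0 and Qki-5 18262 bp away. The isolated-cell PPARb library held 1391 peaks on these chromosomes, with 0.116% of its tags in peaks, so a missing peak there is not a measured absence.

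Qki-5 peaks of isolated cells stood at more of these sites than isolated-cell PPARb peaks did, as over all PPARb peaks (20.6% against 3.92%). The isolated-cell Qki-5 list held 8375 peaks on these chromosomes and the isolated-cell PPARb list 1391. Isolated-cell Qki-5 peaks lay under 200 bp from 359 members, 11.2% (10.1 to 12.4), with 27.1% at three-protein sites. The difference from three-protein sites was -15.9 points (-17.1 to -14.5). With three-protein sites weighted to the members' heights it was -7.50 points. PPARb and Qki-5 sites without HA had 15.4%, and PPARb peaks with neither 4.62%. Flanked sites had 20.2% and remote sites 4.49%, so 82 remote sites had a Qki-5 peak in isolated cells and none within 1000 bp in differentiated cells. Of the members with an isolated-cell PPARb peak 51.0% also had isolated-cell Qki-5 (25 of 49), and of such three-protein sites 87.2%. The tallest isolated-cell Qki-5 peaks were at Atp6v1d, a subunit of the vacuolar proton pump (22.9), Tspan4 and Tcf3 (22.0 each) and Tpgs1 (21.1), each with a differentiated-cell Qki-5 peak 201 to 231 bp away.

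Members lay mostly inside genes. A protein-coding gene covered 62.8% of them, with 58.9% over all PPARb peaks, and 22.9% lay over 10000 bp outside any gene, with 21.7% over all. A gene boundary, the start or end of a gene, lay within 1000 bp of 941 members, 29.4% (27.8 to 31.0), with 33.5% over all and 38.2% at three-protein sites. The difference was -8.79 points (-10.5 to -7.03). With three-protein sites weighted to the members' heights it was -3.94 points, with the member share the lower in 8 of 10 classes. The kinds went to opposite sides of the three-protein share, with 49.1% of flanked sites (10.9 points above it, 8.17 to 13.7) and 14.6% of remote sites (-23.6 points, -25.3 to -21.7). Pol II stood at 43.7% of members at a boundary, 13.7% of those inside a gene and 11.1% of those outside. Over all PPARb peaks the shares were 57.9%, 27.0% and 24.1%, so the order of places was the same there and the members' share was lower at each place.

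Around annotated starts the flanked sites were displaced to the gene side. Of members on chromosomes with start annotation, 882 of 3091 lay within 1000 bp of a start, 28.5%, with 31.4% over all PPARb peaks. Flanked sites there (657) had a median position of 65 bp downstream (quartiles -101 and 267), and their Qki-5 neighbours one of -57 bp, that is upstream. Remote sites had a median of -9 bp and three-protein sites -18 bp. Within 100 bp of the start lay 30.0% of flanked, 50.2% of remote and 64.9% of three-protein sites. Flanked sites were selected for a Qki-5 centre at least 200 bp away and three-protein sites for a closer one. A flanked site and its Qki-5 neighbour can thus hardly both lie within 100 bp of the same start. What part the rule has in the low share and wide spread of flanked sites was not tested. The rule sets the distance between member and neighbour but not the side. The member was on the downstream side of its Qki-5 neighbour in 402 of 657 cases, 61.2% (57.3 to 64.9). In PPARb and Qki-5 sites without HA but with HA from 200 to under 1000 bp away, the PPARb peak was downstream of the HA peak in 261 of 745, 35.0% (31.6 to 38.6), with medians of -52 bp for PPARb and 113 bp for HA.

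**Figure D5:**
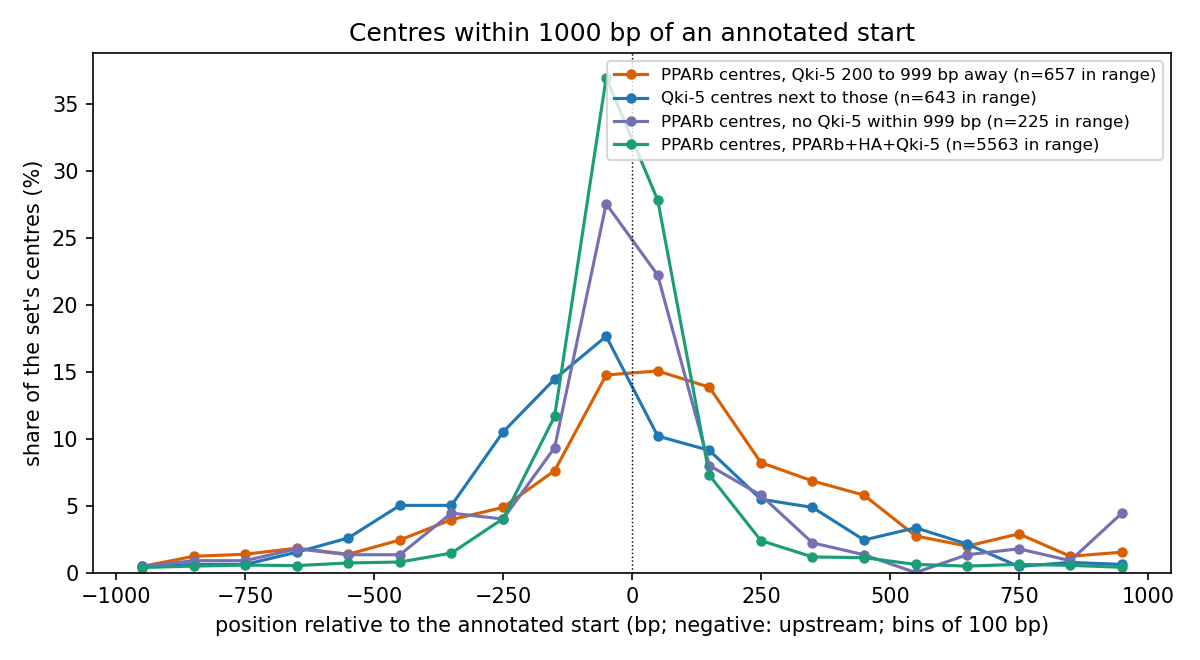
Positions (bp, negative upstream, bins of 100 bp) of peak centres within 1000 bp of an annotated start, as a share (%) of each set: flanked sites, their Qki-5 neighbours, remote sites and three-protein sites. Three-protein and remote sites peak at the start, flanked sites spread downstream (median 65 bp) and their Qki-5 neighbours upstream (median -57 bp). By the rule a flanked site and its neighbour lie at least 200 bp apart, so they can hardly both lie at the start.

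A member stood within 1000 bp of a boundary of 1052 protein-coding genes, 4.81% of 21883, and any PPARb peak at 42.1%. Of the 1052 genes 179, or 17.0%, also had a three-protein site at a boundary, against 6909 or 31.6% of all genes. The caller kept PPARb peaks at least 400 bp apart, so a member at a boundary leaves less room for another PPARb peak there. These shares are therefore not like for like and do not show whether members and three-protein sites keep to separate genes. A Pol II peak stood at a boundary of 74.4% of the 1052 and of 36.3% of all genes, and of 50.2% of the 291 genes with a remote site. All genes include those with no PPARb peak at a boundary, so the higher share is not particular to members. Counted by peak, Pol II stood at 43.7% of members at a boundary and at 57.9% of all PPARb peaks there. Within the gene or 5000 bp around it, 2446 genes, 11.2%, had a member. Dennd1a and Arhgap26 had 5 each, of 17 and 19 PPARb peaks, and Nckap5, Zmiz1 and Macf1 had 4 each. These 5 genes span from 208869 to 917161 bp, and long genes hold more sites of any kind.

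In fatty acid oxidation, the pathway PPARb is best known for, 3 of 27 genes had a member at a boundary, against 19 of 27 with a three-protein site. All 3 members lay 335 to 436 bp into the gene, with Qki-5 355 to 459 bp away. At Etfdh, which passes electrons from acyl-CoA dehydrogenases to ubiquinone, the site on chromosome 3, 79628231 to 79628431, had PPARb 20 (14.6 to 26.8) and HA 42.8, with no Pol II peak. At Acadvl, the very long chain acyl-CoA dehydrogenase, PPARb was 14.2 and HA 31.7, with no Pol II peak. At Acadm, the medium chain enzyme, they were 10.7 and 21.4, with Pol II at 14.9. Their HA to PPARb ratios of 2.14, 2.23 and 2.00 lay above the third quartile of the members, 1.87, and that of flanked sites, 1.96. The ratios have no interval, and those of the Acadm heights were wide (PPARb 6.84 to 15.9, HA 14.1 to 31.1). Nothing is therefore read from the ratios as particular to the pathway. The site in Cpt1a, the carnitine palmitoyltransferase that admits fatty acids to mitochondria, was remote, lay 31310 bp inside the gene and was low (PPARb 8.46, HA 11.1). The ratio of the Cpt1a site, 1.31, was below the members' median of 1.53.

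The known PPAR targets had 4 of 31 genes with a boundary member: Acadvl, Acadm, Acot2, a mitochondrial acyl-CoA thioesterase (PPARb 8.90, HA 23.8, Pol II 14.9, 325 bp into the gene), and Sesn2, a stress-induced sestrin (9.35 and 16.6, no Pol II peak). No member lay in or within 5000 bp of Angptl4, Plin2, Rxra or Pdk4, and these genes had 2, 1, 4 and 0 PPARb peaks there. Peroxisome genes had 4 of 37. Cat, catalase, had a site 390 bp into the gene with PPARb 16.9 (12 to 23.2), HA 41.2 and Qki-5 439 bp away, the same layout as at Etfdh. Pex5, the peroxisomal import receptor, had a remote site 2 bp from its start (PPARb 15.1, HA 23.0, Qki-5 248003 bp away). Pex19 had a remote site with PPARb 8.46 and HA 15.1. No lipid droplet gene of 26 had a boundary member, though 15 had a PPARb peak there.

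Autophagy and lysosome genes had 8 of 44, all by flanked sites. Atg4b, centred 19 bp into the gene, had a peak in each library but that of Qki-5 in differentiated cells: PPARb 16.0 (11.2 to 22.2), HA 24.6, Pol II 10, isolated-cell PPARb 9.79 and isolated-cell Qki-5 15.6, with Qki-5 203 bp away. Atg13 and Ulk2, of the kinase complex that starts autophagy, had PPARb 13.4 and 12.5 (the taller of its sites) and HA 15.8 and 21.4. The others were Wipi1, Atg14, Atp6v1a, Gabarapl1 and Tfe3, a transcription factor of lysosomal genes, with PPARb from 6.68 to 11.6. In this list 42 of 44 genes had some PPARb peak at a boundary and 27 a three-protein site.

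Splicing factors had 6 of 35, again all flanked: Hnrnpk (PPARb 18.2, HA 28.5, Pol II 16.9), Hnrnpa2b1 (16.0, 18.2, no Pol II peak), Sf1 (14.7, 17.4, Pol II 10.9), Srsf7, Hnrnpc and Hnrnpm. The Hnrnpk site was nearer to a boundary of Rmi1 (287 bp) than of Hnrnpk (808 bp). The Hnrnpa2b1 site was nearer to one of Cbx3 (246 bp) than of Hnrnpa2b1 (352 bp). Nuclear receptors and their coregulators had 5 of 45 at a boundary and 20 of 45 within the gene or 5000 bp around it. At Nr2c1, an orphan receptor, the HA height of 52.3 was 3.90 times the PPARb height of 13.4. Nr1d2, the clock repressor REV-ERB beta, had 13.4 and 28.5, and Ncor1, the corepressor, 12 and 20.6. The respiratory chain had 6 of 66, with Atp5l the tallest (PPARb 16.5, HA 20.6, isolated-cell PPARb 7.07). The citric acid cycle list had 3 of 34, stress response 3 of 32, the clock 2 of 22, ribosomal proteins 2 of 55, cholesterol synthesis 1 of 25 (Idi1) and fatty acid synthesis 1 of 33. That 1 was Fads2, the delta-6 desaturase, with PPARb 12, HA 19.8 and Pol II 26.1.

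Myelin genes had 2 of 30, with Qdpr the taller (PPARb 12, HA 15.8). Of the lineage transcription factors, 1 of 21 had a boundary member, Id4 (10.2, 19.8, Pol II 21.7). A remote site 2804 bp upstream of Olig2, the factor that sets oligodendrocyte fate, had PPARb 14.2 (9.74 to 20.1), HA 27.7, no Pol II peak and Qki-5 31240 bp away. Precursor and stem cell markers had 3 of 19, all remote. The Nes promoter site shown above had PPARb 8.90, HA 11.9, Pol II 14.5 and isolated-cell Qki-5 6.87, Egfr had 7.57, 11.1 and Pol II 6.83, and Lhfpl3 had 7.12 and 13.5 without Pol II. Astrocyte markers had 3 of 13 (Aldoc, Slc1a2 and S100b), microglia markers 2 of 15 (Cd68 and P2ry12), neuron markers 0 of 15 and endothelial and mural markers 0 of 13. The Aldoc site was nearer to a boundary of Spag5 (236 bp) than of Aldoc (380 bp). The lists were chosen with earlier results of these data known, so their counts stand beside the 4.81% of all genes as a description, and nothing is read from them as particular to a list.

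The genes of the proteins under study each had 1 member at most. At Qk, which encodes Quaking, the only PPARb peak of the gene and its 5000 bp flanks was a remote site 652 bp upstream of the start, on chromosome 17, 10319913 to 10320113. It had PPARb 11.6 (7.56 to 17.0), HA 23.8, Pol II 16.9 and an isolated-cell Qki-5 peak of 11, while the nearest Qki-5 peak of differentiated cells was 6867 bp away. The gene boundary nearest to this site was that of Gm46608, at 362 bp. At Ppard a remote site 12208 bp inside the gene had PPARb 7.12, HA 18.2 and Pol II 5.63, with Qki-5 8496 bp away. Per chromosome, members made up between 10.2% of PPARb peaks (chromosome 17) and 18.6% (X, 74 of 398), with none of 11 on Y.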

How the data were processed

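The 6 antibody libraries of 2 kinds of mouse oligodendrocyte had 1 deposited peak list each, and the 2 inputs entered only through the peak caller. Per the submitters' processing notes the tools were HOMER 4.10.1, SAMtools 1.8, Bowtie 1.2.2, Trim Galore 0.4.4 and bcl2fastq 2.19.1.403, and the build was mm10. Per the file headers, the authors used HOMER's findPeaks (factor style) with limits of 0.001 for the false discovery rate, 0.0001 for the Poisson p against input, 4-fold against input and 4-fold against the local 10000 bp. Peaks of 1 list were kept 400 bp apart by the caller's setting, duplicates had been removed, and all differentiated-cell lists shared 1 input. Height is the authors' normalized tag count, a signal scaled to 10000000 tags, per the file headers. The total tags are deposited counts in some lists, and the fold over input is a ratio deposited by the authors. What was merged in the differentiated-cell Qki-5 library and the isolated-cell input, whose tag directory names say so, is not stated in the headers or notes.

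Peaks were matched by centre distance with Python 3.11.15, pandas 2.3.3, numpy 2.4.6, scipy 1.17.1 and statsmodels 0.14.6, after the search, the intervals and the motif count were tested on simulated data. Gene positions, starts and promoter sequences came from RefSeq on GRCm38.p6, the same build as mm10. Starts on chromosome 18 were not used here. The 21 gene lists hold 638 entries, all matched. No test over samples was possible with 1 library per group. Depth was 12624236 to 24880851 tags. The members and lists were chosen with earlier results of these data known. Sites named were the 12 highest in both PPARb and HA, the tallest in isolated-cell PPARb (6), isolated-cell Qki-5 (4) and Pol II (4), the 6 tallest far outside genes, the 6 genes with most sites, up to 4 genes per list by PPARb height and 9 genes in any case. Others are said to have been named after their values were seen, as were the list members past the fourth. Alternatives changed the partner distance, the fold over input, the list lengths, the window at gene boundaries and the weighting by height. Some genes that the rule names are not reported here.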

Additional observations from a re-analysis of the deposited data

How the results depend on the processing

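No paired analysis was possible because each group had 1 library. Differences are members minus three-protein sites, in percentage points. The 4 differences kept their sign in all 33 alternative values run. Of the 73 alternative values of all results, 18 stayed within the counting interval of the reported value (for the number of sites, within 1.5-fold) and 55 moved. With 100 bp as the distance for every partner, the Pol II difference was -13.4 points, the isolated-cell PPARb share 2.11%, the isolated-cell PPARb difference -2.53 points, the isolated-cell Qki-5 difference -12.8 points, the boundary difference -6.42 points, the median PPARb height 9.35 and the median HA height 14.3. With 500 bp for every partner, the Pol II share was 15.5%, the Pol II difference -41.0 points, the isolated-cell PPARb share 0.851%, the isolated-cell PPARb difference -5.02 points, the isolated-cell Qki-5 share 6.94%, the isolated-cell Qki-5 difference -23.0 points, the boundary share 20.1%, the boundary difference -20.3 points, the median PPARb height 7.57 and the median HA height 11.1. With peaks of at least 8-fold over input, the Pol II share was 29.7%, the isolated-cell PPARb share 2.22%, the isolated-cell Qki-5 share 13.0%, the boundary difference -11.0 points, the median PPARb height 9.35 and the median HA height 14.3. With the 26404 tallest peaks of each list, the Pol II difference was -28.5 points, the isolated-cell Qki-5 difference -17.7 points and the boundary difference -10.7 points. With Qki-5 absent within 1000 bp, which leaves the remote sites, the number of sites was 1827, the Pol II share 8.98%, the Pol II difference -39.4 points, the isolated-cell PPARb share 0.438%, the isolated-cell PPARb difference -4.86 points, the isolated-cell Qki-5 share 4.49%, the isolated-cell Qki-5 difference -22.6 points, the boundary share 14.6%, the boundary difference -23.6 points, the median PPARb height 7.57 and the median HA height 11.1. With Pol II counted within 1000 bp, the Pol II share was 34.9% and the Pol II difference -22.1 points. With a boundary window of 500 bp, the boundary share was 22.8% and the boundary difference -11.7 points. With a boundary window of 5000 bp, the boundary share was 42.8% and the boundary difference -5.50 points. With three-protein sites weighted to the members' heights, the Pol II difference was -15.9 points, the isolated-cell PPARb difference -1.21 points, the isolated-cell Qki-5 difference -7.50 points and the boundary difference -3.94 points. With isolated-cell peaks counted within 1000 bp, chosen after the data were seen, the isolated-cell PPARb share was 2.91%, the isolated-cell PPARb difference -3.08 points, the isolated-cell Qki-5 share 19.3% and the isolated-cell Qki-5 difference -10.6 points. With remote sites only and that weighting, also chosen after the data were seen, the Pol II difference was -24.0 points, the isolated-cell PPARb difference -1.38 points, the isolated-cell Qki-5 difference -10.6 points and the boundary difference -16.2 points. The cause of these shifts was not tested. The isolated-cell PPARb values rest on 49 sites, from a library of 18389111 tags with 0.116% of them in peaks.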
